A study of Mus musculus with 14 samples.

Results

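H3K27me3 regions that lay inside protein-coding genes but away from their promoters were described in the developing mouse cerebellum. The members were selected on the peak lists themselves. Peaks of the 9 libraries of the age series were merged where they overlapped or touched, and a merged region was kept if 2 or more libraries had a peak in it, if it overlapped a protein-coding gene, and if it lay more than 3 kb from every annotated protein-coding transcription start site (TSS). Of 39220 merged regions, 16829 were in 2 or more libraries, and 3592 of these were gene-body members. The rest were 5591 promoter regions and 7646 intergenic regions. The age series profiled whole cerebellum of C57BL/6NCrl mice of both sexes at 3 postnatal ages, 7 (P7), 14 (P14) and 60 days (P60), with 3 ChIP-seq libraries each. More mice were pooled per replicate at P7 than at P14, and 1 mouse gave each P60 replicate, so pool size changed with stage. The series also holds 2 libraries from Kdm6b fl/fl controls (Kdm6b-WT) and 3 from mice with Kdm6b deleted by Atoh1-Cre (Kdm6b-cKO), whose peak positions ran past the ends of GRCm38 chromosomes and which were not analysed here.

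H3K27me3 is written by Polycomb repressive complex 2 and is best known from CpG-rich promoters of silenced developmental genes. In some of these genes the mark spreads as a broad domain over exons and introns. In the cerebellum, granule neuron progenitors divide in the first postnatal weeks and their progeny then mature as granule neurons, the most numerous cell type of the tissue. The tissue label was checked at promoters: of 10 granule neuron marker genes, 5 (Cbln3, Etv1, Gabra6, Zic1 and Zic2) had no promoter peak in any of the 9 libraries and none of the 10 had one at P60. Of 8 granule progenitor markers, 7 had a promoter peak in each P7 library, 8 in each P14 library and 3 to 4 at P60. Markers without a promoter peak in any library were also found for other cell types, 4 of 8 for oligodendrocytes, 3 of 6 for microglia and 3 of 7 for astrocytes, so this check does not single out granule neurons. The libraries come from whole tissue, so fewer marked cells of a type and less mark per cell cannot be told apart.

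The 9 lists held between 6905 and 15600 peaks that covered between 1.48 and 15.2 Mb, and the number of reads behind them is unknown. Covered length was 15.2, 8.40 and 7.38 Mb at P7, 3.62, 7.79 and 9.26 Mb at P14, and 2.82, 1.48 and 3.61 Mb at P60. Every P60 list thus covered less than every earlier list. Peaks were narrow in 3 libraries. Their median width over all peaks was 134 bp in P60 replicate 1, 149 bp in P60 replicate 2 and 269 bp in P14 replicate 1, against 410 to 751 bp in the other 6. All positions are on GRCm38 (mm10). Every value by stage of the members is a description without a test, because the same peaks chose them.

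The members fell into 2 kinds of sequence, shown here by the central 200 bases of 6 members. For a lost member all 3 P7 libraries and no P60 library had a peak, for a gained member no P7 library and all 3 P60 libraries did, and the remaining pair had a peak in all 9 libraries. The members shown are the most covered of each class that lie in no untranslated region (UTR). They are written on the plus strand from the RefSeq GRCm38.p6 genome, with every CpG dinucleotide in capitals.

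Tmem267, in all 9 libraries, chr13:119599458-119599657: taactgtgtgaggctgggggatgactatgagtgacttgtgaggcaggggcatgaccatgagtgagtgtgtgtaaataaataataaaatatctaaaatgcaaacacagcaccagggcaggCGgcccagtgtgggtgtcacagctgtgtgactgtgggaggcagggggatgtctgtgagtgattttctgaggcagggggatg
Gm20388, in all 9 libraries, chr8:123582578-123582777: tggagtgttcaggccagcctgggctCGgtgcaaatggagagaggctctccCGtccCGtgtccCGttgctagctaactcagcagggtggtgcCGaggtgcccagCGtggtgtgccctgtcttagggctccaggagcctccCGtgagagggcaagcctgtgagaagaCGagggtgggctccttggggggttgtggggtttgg
Grin1, lost, chr2:25312135-25312334: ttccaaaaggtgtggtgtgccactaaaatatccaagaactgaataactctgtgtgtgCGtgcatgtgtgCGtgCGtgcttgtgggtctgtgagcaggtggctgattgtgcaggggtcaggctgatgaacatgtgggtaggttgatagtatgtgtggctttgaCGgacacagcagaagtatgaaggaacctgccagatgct
Zfhx3, lost, chr8:108696228-108696427: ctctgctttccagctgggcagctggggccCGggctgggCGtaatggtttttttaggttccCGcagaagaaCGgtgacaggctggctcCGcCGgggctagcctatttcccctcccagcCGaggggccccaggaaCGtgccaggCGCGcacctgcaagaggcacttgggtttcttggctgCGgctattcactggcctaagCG
Sdk2, gained, chr11:113790447-113790646: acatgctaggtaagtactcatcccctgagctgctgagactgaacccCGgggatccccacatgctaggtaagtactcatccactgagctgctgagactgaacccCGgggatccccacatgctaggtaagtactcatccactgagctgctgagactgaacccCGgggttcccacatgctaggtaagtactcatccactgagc
Dlgap2, gained, chr8:14339942-14340141: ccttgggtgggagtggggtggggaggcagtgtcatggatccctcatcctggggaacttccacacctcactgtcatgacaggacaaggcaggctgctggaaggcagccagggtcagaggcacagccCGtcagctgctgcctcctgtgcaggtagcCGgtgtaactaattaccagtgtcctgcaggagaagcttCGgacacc

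The lost Zfhx3 stretch held 12 CpG dinucleotides and the lost Grin1 stretch 4. The gained Sdk2 and Dlgap2 stretches held 3 each. A word of 24 bases stood 3 times in the Sdk2 stretch, of which 0% was soft-masked as repeat in the genome sequence. The Gm20388 stretch of the class in all 9 libraries was 100% soft-masked.

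How far a member's sequence was found elsewhere was measured by its 32-base words. A word was called multi-copy if it occurred more than once in the genome on either strand, and the libraries were sequenced as 50-base single ends. By this measure 1749 members had under 50% of their words in more than 1 copy (single-copy members) and 1843 had 50% or more (multi-copy members). The median member had 54.9% multi-copy words, against 64.5% in intergenic regions and 0% in promoter regions. Single-copy members were wider, with a median of 938 bp against 396 bp, and denser in CpG, with a median of 20.9 per kb against 4.33 per kb. An exon was overlapped by 29.1% of the single-copy and 8.03% of the multi-copy members. The median fold enrichment over the library's own background, which the authors' peak caller gave, was lower in single-copy members (3.17) than in multi-copy members (4.0). The sources used here do not say how reads with several matches were placed, so signal at multi-copy members cannot be assigned to 1 copy and is uncertain.

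On average fewer members had a peak at P60 than at the earlier stages, and among single-copy members the P60 libraries stood apart. The number of members present was 1946, 1736 and 1368 at P7, 1473, 1990 and 1987 at P14, and 1453, 1078 and 1045 at P60. The P7 and P60 ranges overlapped, and the lowest P14 library, the one with narrow peaks, lay just above the highest P60 library. Single-copy members numbered 1286, 950 and 695 at P7, 541, 1021 and 1183 at P14, and 288, 263 and 494 at P60. All 3 P60 values lay below all 6 earlier ones. Multi-copy members numbered 660, 786 and 673 at P7, 932, 969 and 804 at P14, and 1165, 815 and 551 at P60, and these ranges overlapped. As a mean over 3 libraries, 55.8% ± 17 (SD) of single-copy members had a peak at P7, 52.3% ± 19.1 at P14 and 19.9% ± 7.23 at P60, while multi-copy members had 38.3% ± 3.74, 48.9% ± 4.73 and 45.8% ± 16.7. Multi-copy members made up 80.2% of the members present in P60 replicate 1 and 75.6% in P60 replicate 2, the libraries with the narrowest peaks, and 52.7% in P60 replicate 3.

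**Figure D1:**
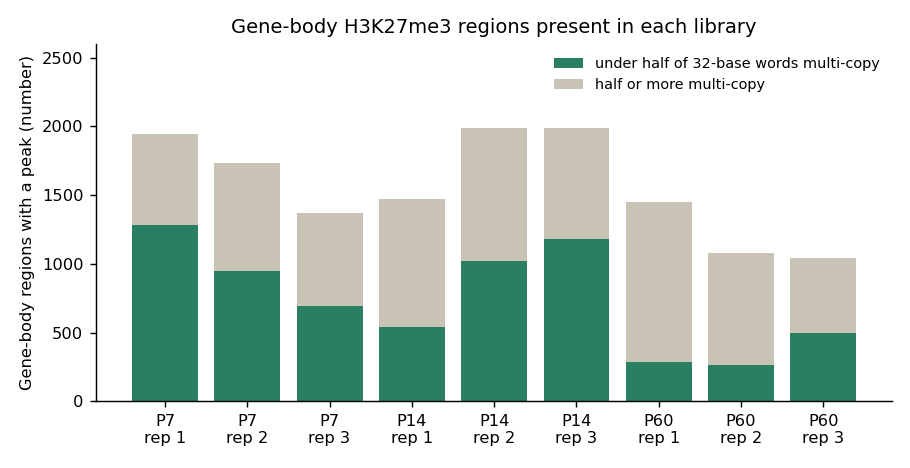
Number of gene-body members with a peak (y axis) in each of the 9 libraries (x axis), split into members with under 50% (green) and 50% or more (grey) multi-copy 32-base words. The green part ran from 263 to 494 at P60 and from 541 to 1286 at P7 and P14, while the grey part ranged from 551 to 1165 with no such order.

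Promoter and intergenic regions are given for comparison. Of the promoter regions, 74.3% ± 9.77 were present at P7, 62% ± 12.5 at P14 and 32% ± 7.97 at P60 (SD, n = 3). Of the members, 46.9% ± 8.15, 50.6% ± 8.29 and 33.2% ± 6.31 were present at the same stages, and of the intergenic regions 47.6% ± 8.23, 49.2% ± 8.12 and 36.4% ± 8.83. On average, libraries of a stage also shared more members with each other than with libraries of another stage, but some ranges overlapped. A pair of P7 libraries had 46.0 to 55.0% of the members of either in both, a P7 and a P14 library 30.0 to 47.6%, and a P7 and a P60 library 22.9 to 32.1%. Pairs of P14 libraries shared 39.1 to 53.4%, which overlapped the range of P7 and P14 pairs. Pairs of P60 libraries shared 31.6 to 43.0%, which overlapped the range of P7 and P60 pairs. At least 1 library of each stage had a peak in 1099 members (30.6%). P7 and P14 without P60 held 853 members, P14 and P60 without P7 held 539, and P7 and P60 without P14 held 315. Peaks of P7 libraries alone were in 288 members, of P14 libraries alone in 346 and of P60 libraries alone in 152.

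Between P7 and P60, 330 members were lost and 29 gained, and 304 were kept in all 6 libraries. Lost members were 9.19% of all members, beside 14.1% of regions of every class in 2 or more libraries. Gained members were 0.807%, beside 0.802%, and kept members 8.46%, beside 9.67%. Among single-copy members alone 309 (17.7%) were lost, beside 22.7% of single-copy regions of all classes, and 7 (0.400%) were gained, beside 0.431%. These shares come from the lists that chose the members, and nothing is read from them about the members. Over the intermediate steps fewer members were lost than from P7 to P60. From P7 to P14, 92 members (2.56%) were lost, beside 3.87% of all regions, and 119 (3.31%) were gained, beside 2.19%. From P14 to P60, 211 (5.87%) were lost, beside 7.48%, and 29 (0.807%) were gained, beside 0.582%. All 9 libraries had 267 members (7.43%), beside 8.65%, and 73 members (2.03%) were in all P14 libraries and no other, beside 1.21%. The count of lost members depended on the library with the fewest P7 peaks and was 613 without P7 replicate 3. The count of gained members was 192 without P60 replicate 3, 82 without P60 replicate 2, 57 without P60 replicate 1 and 44 without P7 replicate 1. Without the 3 libraries of narrow peaks, an alternative chosen after seeing the data, 161 members were gained and 472 kept.

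The classes differed in what they were made of. Lost members had a median width of 1483 bp and 27 CpG per kb, and 41.8% overlapped an exon and 39.4% coding sequence (CDS). Only 6.36% of them were multi-copy. Members in all 9 libraries had a median of 9.82 CpG per kb, and 67.4% were multi-copy. Members in all P14 libraries only had 11.3 CpG per kb and were multi-copy in 42.5%, and gained members had 4.73 CpG per kb and were multi-copy in 75.9%. The last class holds 29 regions, of which 3 overlapped an exon. Within the class in all 9 libraries, the 87 single-copy members had a median of 23.3 CpG per kb and a fold enrichment of 6.12, and the 180 multi-copy members had 4.73 CpG per kb and 4.94. For comparison, promoter regions in 2 or more libraries had a median of 38.3 CpG per kb.

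**Figure D2:**
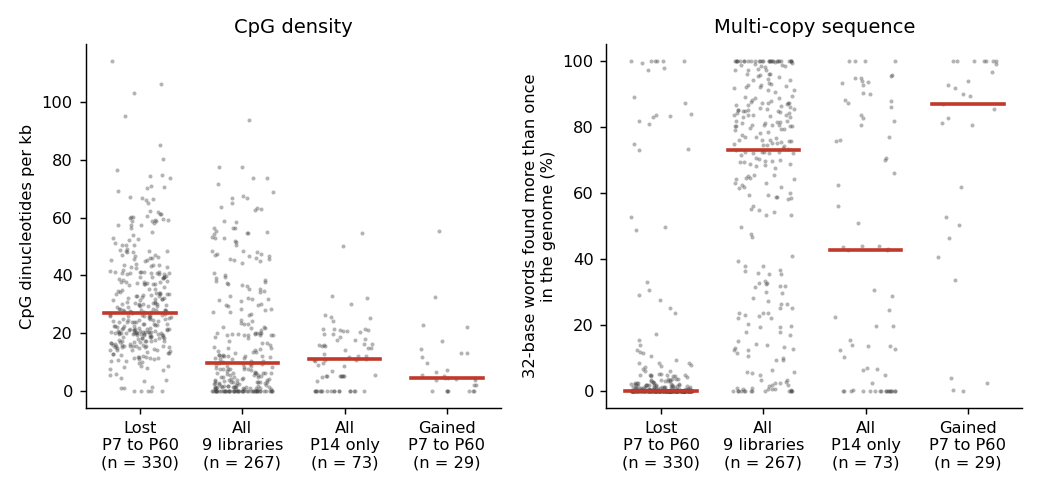
CpG dinucleotides per kb (left) and percent of 32-base words found more than once in the genome (right) for every member of the lost, all-9, P14-only and gained classes, each point a region and each red line the median. Lost members cluster at 0% multi-copy words with a median of 27 CpG per kb, while the gained class has a median of 4.73 CpG per kb.

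The 6 most covered lost members lay in Prdm12, Grin1, Zfhx3, Agap2, Macrod1 and Rps6ka4. Prdm12 encodes a transcriptional regulator of sensory neuron development. Its member (chr2:31652041-31655316, 3276 bp) spanned coding and UTR sequence 12004 bp from the nearest TSS. Peaks covered 3105, 2038 and 3045 bp of it at P7, 0, 1613 and 2596 bp at P14, and none at P60. A promoter peak of Prdm12 was in all P7 and P14 libraries and in no P60 library, and P14 replicate 1 thus had a promoter peak without one in the member.

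Zfhx3, a large homeobox and zinc finger factor of differentiating neurons, held an intronic lost member (chr8:108694693-108697962, 3270 bp, 34.6 CpG per kb). Covered bases were 3261, 1968 and 1660 at P7, 0, 1614 and 1585 at P14, and 0 in all P60 libraries. The Zfhx3 promoter still had a peak in P60 replicate 3.

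Grin1 encodes the obligatory subunit of NMDA-type glutamate receptors. Its member (chr2:25310924-25313545, 2622 bp) lay 5527 bp from the nearest TSS over annotated exons, of which 181 bp were coding and the remainder belonged to transcripts without an annotated coding or UTR part there. Coverage was 2327, 2578 and 2360 bp at P7 and 0 in every P14 and P60 library. It was the only one of the 6 most covered lost members without a peak at P14. A promoter peak of Grin1 was present in P7 replicate 2 alone.

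Agap2, which encodes a GTPase-activating protein abundant in brain, held a member over coding and UTR sequence (chr10:127089917-127092536). It was covered over 2620, 2109 and 2117 bp at P7, 643, 1059 and 1306 bp at P14 and none at P60. Macrod1, the gene of an ADP-ribose hydrolase of mitochondria, held an intronic member (chr19:7164394-7166750) with 76.4 CpG per kb. Its coverage was 2349, 2290 and 2109 bp at P7 and 0, 150 and 855 bp at P14. Rps6ka4 encodes the kinase MSK2, which phosphorylates histone H3. Its member (chr19:6829034-6831600) was covered over 2470, 2108 and 2027 bp at P7 and 533, 1126 and 2349 bp at P14, and its promoter had no peak in any library. Both members had no peak at P60. In all 6 of these lost members, P14 replicate 1, with narrow peaks, was the lowest P14 library or tied for it.

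Members present in all 9 libraries were mainly repetitive. The most covered was an intronic region of Tmem267, a membrane protein gene (chr13:119595643-119603472, 7830 bp), at 7718, 7051 and 7128 bp at P7, 6096, 7062 and 7744 bp at P14 and 6556, 5194 and 6480 bp at P60. It was 72.1% soft-masked and 69.2% of its words were multi-copy. Of the next 5, 4 lay in introns of Gm20388 on chromosome 8 with 92.5 to 99.5% multi-copy words, and 1 in an intron of F8, the gene of coagulation factor VIII, with 76.6%. Over the whole class, 14 members overlapped an annotated ribosomal RNA gene, and all 14 were multi-copy.

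The single-copy members of this class with under 50% repeat mask were examined after their values had been seen. In each of the 6 most covered, every P60 value lay below every P7 value. The total covered length of the lists had the same order, so this is not particular to these members. Ostm1, a gene of lysosome function in bone, held an intronic member (chr10:42631382-42637131) covered over 4548, 1741 and 2479 bp at P7, 1049, 2145 and 2264 bp at P14 and 204, 389 and 497 bp at P60. Evpl encodes envoplakin of the epidermal envelope. Its member lay wholly in coding sequence (chr11:116221317-116224004, 2688 bp), with 2628, 2610 and 1886 bp at P7, 1397, 1580 and 1759 bp at P14 and 366, 542 and 1375 bp at P60. For Ostm1 and Evpl the 3 P60 values also lay below every P14 value. F12, the gene of coagulation factor XII, had 2214, 2553 and 2246 bp at P7, 937, 950 and 1743 bp at P14 and 312, 418 and 546 bp at P60 over coding exons (chr13:55419442-55421994), although its promoter had no peak in any library. Casz1, a zinc finger factor of neural and cardiac development, had 1850, 1585 and 1753 bp at P7, 1148, 1961 and 1893 bp at P14 and 269, 517 and 1472 bp at P60, and its promoter had a peak in all 9 libraries. Dock2, a regulator of leukocyte migration, held the remaining pair. Its larger intronic member (chr11:34542811-34545088) was covered over 1900, 1680 and 1847 bp at P7, 1235, 1750 and 843 bp at P14 and 1673, 1469 and 1388 bp at P60. There the highest P60 value lay just below the lowest P7 value, and the P14 values spanned both.

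Among the members in all P14 libraries only, the 6 most covered were intronic, and 4 were multi-copy. Ptprn2, which encodes a protein of secretory granules, had 920, 1097 and 1241 bp covered (chr12:116576771-116578011) in sequence with no CpG and 94.7% multi-copy words. Scube2, a secreted factor of Hedgehog signalling, had 450, 1236 and 1322 bp, Cadps2, which acts in dense-core vesicle release, 1001, 606 and 1206 bp, and Map3k4, a kinase of stress signalling, 1183, 1000 and 480 bp, with 81.8 to 93.9% multi-copy words. Shb (212, 1202 and 1298 bp) and Ebf3 (537, 959 and 989 bp) had 0% multi-copy words and 19.8 and 19.7 CpG per kb. Shb encodes an adaptor of receptor tyrosine kinases and Ebf3 a factor of neuronal differentiation. The promoters of Ptprn2 and Map3k4 had no peak in any library.

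Gained members were short and covered over few bases. Sdk2, an adhesion protein of synaptic layers, had 695, 326 and 525 bp at P60 and 643 bp in P14 replicate 2 (chr11:113790163-113790930), in 80.5% multi-copy words. Dlgap2, a scaffold of the postsynaptic density, had 51, 323 and 967 bp at P60 and 570 bp in P14 replicate 3 (chr8:14339559-14340525). It was the only one of the 6 with 0% multi-copy words, and its values at P60 differed from each other more than those of the other 5. Gng12, a G protein subunit gene, had 487, 196 and 312 bp at P60, and 441 and 1228 bp in P14 replicates 2 and 3. The members of Ttc34, Gm8159 and Plppr4 had no P14 peak and 93.8 to 100% multi-copy words. With members of 50% or more multi-copy words left out, an alternative added after seeing the data, 7 gained members were left.

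**Figure D3:**
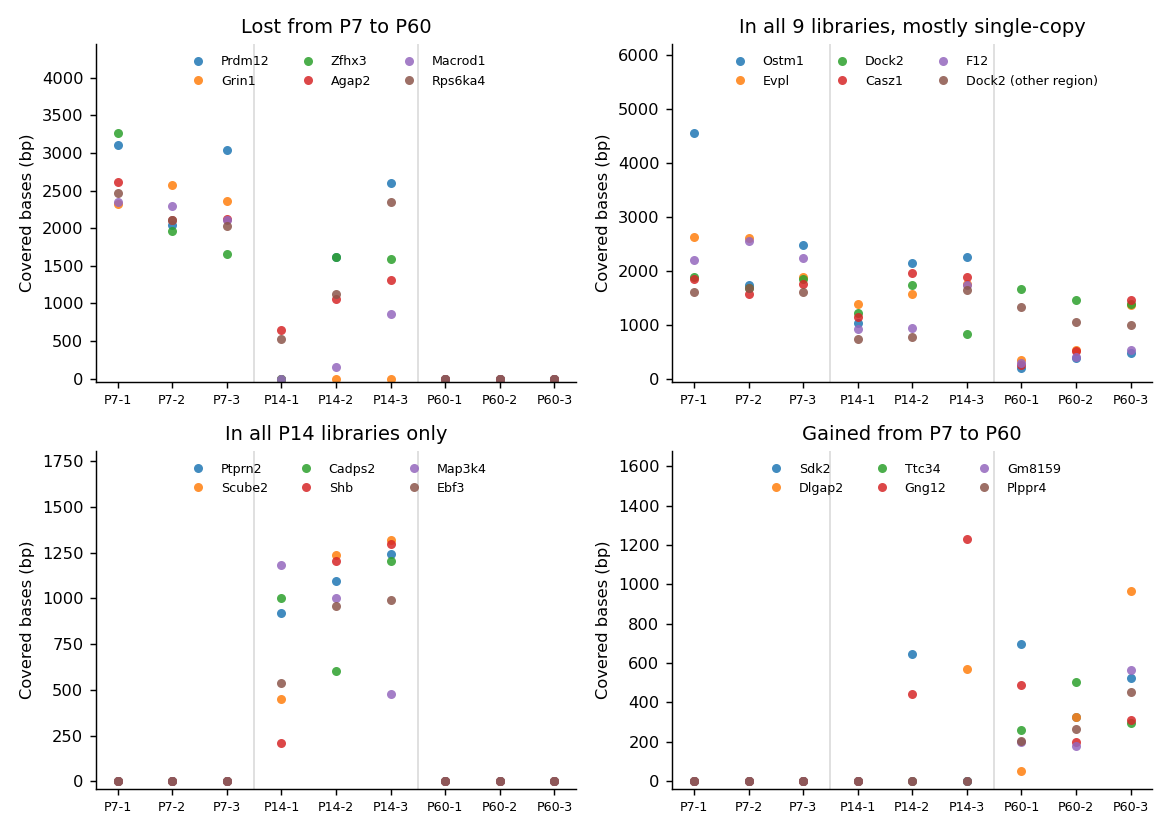
Bases covered by peaks (y axis) in each library (x axis, stage and replicate number) for the 6 most covered members of each class, with the class in all 9 libraries shown for members under 50% in both multi-copy words and soft mask. The lost members lie between 1660 and 3261 bp at P7 and at 0 at P60, and the gained members do not exceed 967 bp at P60.

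Position relative to promoters was examined next, over all gene-body peaks of each library whether or not they recurred. Eligible gene-body sequence, that is gene sequence more than 3 kb from every TSS, amounted to 849.2 Mb. Peak coverage per Mb of it was higher near promoters than far from them at each stage. It was 1939 ± 592.3 bp per Mb at 3 to 5 kb, 2480 ± 981.6 at 5 to 10 kb and 971.7 ± 626.9 beyond 100 kb at P7 (SD, n = 3). At P60 it was 668.8 ± 202.3, 709.3 ± 249.0 and 296.1 ± 90.4 bp per Mb. The ratio of the nearest to the farthest band was 2.00 at P7, 1.73 at P14 and 2.26 at P60. Members numbered 5.74 per Mb at 3 to 5 kb and 2.67 per Mb beyond 100 kb, and 4.23 per Mb over all eligible sequence. Their median distance to the nearest TSS was 17814 bp. At the limit itself, the nearest members were in Coro6, 3008 bp from a TSS and present in 5 libraries, and in Xxylt1, at 3013 bp in 2 libraries. The nearest regions left out were in Rad18, at 2995 bp in 4 libraries, and Pnpla3, at 2993 bp in 2 libraries. The recurrence limit left out 4979 gene-body regions seen in 1 library, with a median width of 220 bp and 10.1 CpG per kb, beside 406 bp and 12.8 per kb for the 1345 members in exactly 2 libraries.

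**Figure D4:**
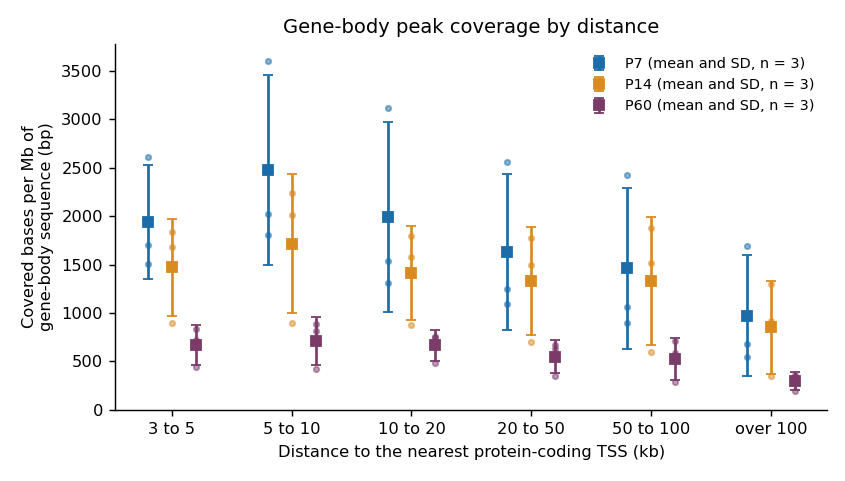
Bases covered by gene-body peaks per Mb of eligible gene-body sequence (y axis) in 6 bands of distance to the nearest protein-coding TSS (x axis), with 1 point per library and the mean and SD of 3 libraries per stage as squares and bars. Coverage at P7 ran from 2480 bp per Mb at 5 to 10 kb to 971.7 bp per Mb beyond 100 kb, and the P60 means lay below the P7 and P14 means in every band.

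Gene-body peaks were denser in CpG and in exons than the gene sequence they could have covered. They held 22.8 ± 5.32 CpG per kb (SD, n = 9 libraries) against 8.56 per kb of eligible sequence, a ratio of 2.67, and were higher in 9 of 9 libraries (two-sided exact sign-flip permutation test, p = 0.00391, the smallest this test can give). Their exon share was 13.7% ± 3.94 against 6.09%, a ratio of 2.24, again higher in 9 of 9 libraries (exact p = 0.00391). Both values were lower at P60 than in any earlier library, a difference that was not tested. The exon share was 15.4, 18.2 and 19.3% at P7, 12.7, 14.6 and 14% at P14 and 9.0, 7.11 and 12.6% at P60, with no overlap between the stages. CpG density was 24.9, 27.4 and 28.3 per kb at P7, 23.9, 25.6 and 25.3 per kb at P14 and 13.2, 15.0 and 21.8 per kb at P60. The soft-masked share of gene-body peaks moved the other way, from 24% ± 3.55 at P7 to 38.9% ± 8.47 at P60, and its part in these values was not tested.

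Compared with promoter peaks of the same library, gene-body peaks were narrower, poorer in CpG and less often shared within their stage. Any peak that reached within 3 kb of a start site was classed as promoter, so a wide peak was more likely to fall there. A wide peak can also overlap a peak of another library more easily. The part of this in the differences of width and sharing was not tested. The median width was 341.3 ± 153.2 bp against 650.6 ± 348.8 bp, lower in 9 of 9 libraries (exact sign-flip test, p = 0.00625 after Benjamini-Hochberg adjustment over the 8 comparisons of this family). CpG density was 22.8 ± 5.32 against 51.3 ± 7.71 per kb, lower in 9 of 9 (adjusted exact p = 0.00625). A peak of another library of the stage overlapped 59.7% ± 12.7 of gene-body and 77.8% ± 15.3 of promoter peaks (adjusted exact p = 0.0104), with P60 replicate 3 the exception at 53.0% against 52.3%. With peaks of −log10 q of 2 or more this difference went from -18.1 to -11.5 percentage points, and with 4 or more to -4.56, and neither passed the threshold (unadjusted exact p = 0.0664 and 0.215). Median fold enrichment was slightly higher in gene-body peaks, at 3.64 ± 0.424 against 3.38 ± 0.264, in 9 of 9 libraries (adjusted exact p = 0.00625). Against intergenic peaks the differences were smaller. CpG density differed by 2.22 ± 1.78 per kb and median fold enrichment by 0.0786 ± 0.0444, both higher in gene bodies in 9 of 9 libraries (adjusted exact p = 0.00625 for each). For width the mean difference was -3.67 ± 16.1 bp (adjusted exact p = 0.531) and for recurrence 2.01 ± 3.37 percentage points (adjusted exact p = 0.121).

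**Figure D5:**
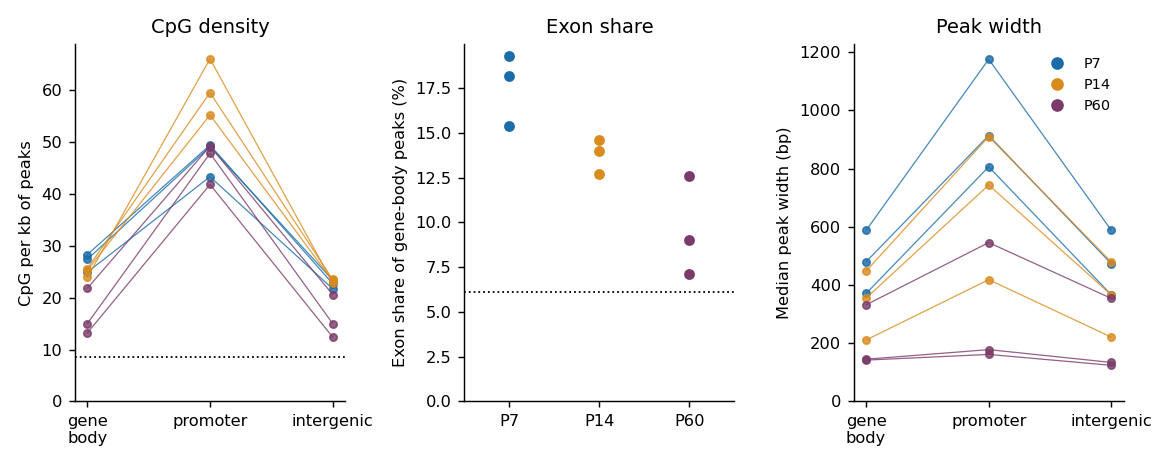
CpG per kb of peaks in 3 classes of position (left, lines join the values of a library), exon share of gene-body peaks by stage (middle) and median peak width by class (right), for 9 libraries coloured by stage. Dotted lines give the eligible gene-body sequence, 8.56 CpG per kb and 6.09% exon, and every library lies above both.

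The share of peaks that fell in gene bodies was 19.4, 18.8 and 17.7% at P7, 20.9, 21.4 and 21.3% at P14 and 19.3, 21.4 and 19.4% at P60, and the stages were not separated at a threshold of 0.05 (exact permutation test over 1680 arrangements, p = 0.050, smallest possible 0.00357). Without P7 replicate 1 (exact p = 0.0464) or P60 replicate 2 (exact p = 0.0143) they were separated. With only the 5′ end of each gene as TSS they were separated with the opposite sign, P60 minus P7 being -1.48 percentage points (exact p = 0.0179) in place of 1.38. Of the covered length, gene bodies held 14.3% ± 0.800 in P7 libraries, 16.7% ± 0.109 in P14 libraries and 18.9% ± 2.69 in P60 libraries (SD, n = 3, exact permutation p = 0.0321). The call on length was lost without any 1 of the 6 P7 and P14 libraries, with p between 0.0607 and 0.132. Without the 3 libraries of narrow peaks the difference between P60 and P7 shrank from 4.62 to 1.55 percentage points (exact p = 0.0667).

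The 3592 members lay in 2253 host genes, 12.8% of the 17569 protein-coding genes with eligible sequence. Host genes were long, with a median of 82.1 kb against 25.1 kb for all genes with eligible sequence, so members per Mb of eligible sequence are given beside the gene lists. A single member was found in 1659 hosts and 5 or more in 93. The host with the most members was Gm20388, with 90, a gene model of 4435 kb that runs across other genes. Of its members, 39 were multi-copy and 17 overlapped ribosomal RNA genes. C130026I21Rik, on chromosome 1, had 46 members, all of them multi-copy, and more of these were present in P60 replicate 1 (41) than in any other library (15 to 24). In Ulk4, a kinase-like gene, 13 of 14 members were multi-copy. Counts of the multi-copy members of these 3 genes are uncertain for the reason given above.

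The other hosts with most members held mainly single-copy regions. Wwox, a large tumour suppressor gene at a common fragile site, had 22 members, of which 21 had a P7 peak, 12 a P14 peak and 2 a P60 peak. Present per library were 20, 14 and 7 at P7, 5, 7 and 12 at P14 and 1, 1 and 2 at P60. Its P60 values lay below all others, and P7 replicate 1 alone had nearly every member.

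Zfhx3 had 19 members with none multi-copy, 13, 9 and 10 present at P7, 5, 12 and 14 at P14 and 1, 2 and 6 at P60, and 7 of them were lost. Prdm16, a zinc finger factor of neural stem cells and brown fat, had 16 members, with 12, 7 and 7 at P7, 5, 14 and 16 at P14 and 0, 0 and 4 at P60, and 7 were lost. All 16 had a P14 peak, 12 a P7 peak and 4 a P60 peak, and 1 of the 16 was multi-copy. Over all single-copy members 17.7% were lost, and over single-copy regions of all classes 22.7%.

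Dlgap2 also had 16 members, more of them with a peak in any P14 library (14) than in any P7 (6) or P60 library (4). Per library, 6, 2 and 3 were present at P7, 5, 12 and 13 at P14 and 3, 4 and 3 at P60. Tenm4, which encodes a teneurin of synaptic wiring, had 13 members, with 10, 11 and 3 in any library of the 3 stages. Per library, 8, 2 and 1 were present at P7, 3, 6 and 8 at P14 and 1, 0 and 2 at P60. None of the 13 was lost, beside the same 17.7% of single-copy members and 22.7% of single-copy regions. With 1 member present in P7 replicate 3, at most 1 could have been called lost. Camta1, a calmodulin-binding transcription activator, had 14, with 10, 11 and 5 in any library of the stage. Per library, 9, 6 and 6 were present at P7, 5, 6 and 10 at P14 and 2, 1 and 3 at P60. Fgfr2, a fibroblast growth factor receptor, had 15 in a gene model of 2961 kb, with 10, 13 and 12 in any library of the stage. Per library, 10, 7 and 7 were present at P7, 5, 10 and 11 at P14 and 6, 6 and 8 at P60. The P7 and P60 ranges thus overlapped. The count of 15 is that of the long annotated model, whose most covered member lay 82055 bp from the nearest TSS.

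Homeobox, T-box and Gata genes held many members for their length. Of 117 homeobox genes with eligible sequence, 42 (35.9%) hosted 88 members in 4.39 Mb, where all genes held 4.23 per Mb. Their members had a median of 26.3 CpG per kb. A P7 peak was present in 80, a P14 peak in 75 and a P60 peak in 24. Of the 88, 30 were lost, none gained and none in all 9 libraries. Over all members 9.19% were lost, and over all regions 14.1%. Only 1 of the 88 was multi-copy, and single-copy members were lost in 17.7%, beside 22.7% of single-copy regions of all classes. Zfhx3 alone held 19 of the 88 members and 7 of the 30 lost. Among T-box and Gata factors 8 of 20 genes hosted 14 members, 31.7 per Mb, and all 14 had a P7 peak. Of the 14, none was multi-copy and 7 were lost. The shares to set beside this are the same 9.19% and 14.1%, or 17.7% and 22.7% for single-copy sequence. Forkhead factors (6 of 30 genes, 4.21 members per Mb) and Sox factors (2 of 13 genes, 2.60 per Mb) lay near or below the level of all genes, and C2H2 zinc finger genes hosted members in 40 of 398 genes, and 39 of their 53 members were multi-copy. The lists were set with earlier results of these data known and their counts carry no test.

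These lists were chosen as families of transcription factors, and their most covered members are described next. Pax2, a paired-box factor of the cells that become cerebellar inhibitory interneurons, held a member over coding and UTR sequence (chr19:44834585-44838718, 4134 bp). Coverage was 4072, 2420 and 2059 bp at P7, 787, 2885 and 2584 bp at P14 and 0, 0 and 377 bp at P60. The Pax2 promoter had a peak in all P7 and P14 libraries and in none at P60. Onecut3, a factor of motor neuron and other neural lineages, had 2736, 2551 and 2457 bp at P7, 0, 1775 and 1960 bp at P14 and 131, 0 and 781 bp at P60 in an intron (chr10:80502314-80505109).

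Foxo6, a forkhead factor of hippocampal neurons, had 2297, 1600 and 1963 bp at P7, 1355, 1424 and 1689 bp at P14 and 238, 0 and 468 bp at P60 over exons (chr4:120267190-120269533), with 81.5 CpG per kb. Gata4, a factor of heart and endoderm, had 2144, 1167 and 1476 bp at P7, 958, 1086 and 1203 bp at P14 and 0, 87 and 611 bp at P60. Tbr1, a factor of glutamatergic neurons, had 2148, 814 and 406 bp at P7, 0, 876 and 1376 bp at P14 and 349 bp in P60 replicate 3 alone, although its promoter had a peak in all 9 libraries. In each of these 5 genes the P60 values lay below the lowest P7 value, and P60 replicate 3, which has the widest peaks of its stage, had the highest P60 value. Foxc1 and Zfp853 members also had every P60 value below every P7 value. The total covered length of the lists had this order too, so it is not particular to these genes. Other members named for the Sox and C2H2 lists did not. Sox6 had 305, 0 and 0 bp at P7 and 0, 0 and 1012 bp at P60. Sox5, 81.4% multi-copy, had no P7 peak and 388, 0 and 0 bp at P60. The Zfp953 member, 76.1% multi-copy, had 1467, 1411 and 1386 bp at P7 and 308, 62 and 1393 bp at P60.

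Among signalling genes, Wnt ligands, receptors and inhibitors hosted members in 5 of 36 genes (13.9%, beside 12.8% of all genes), at 8.54 members per Mb. Wnt3, a secreted ligand, held a member over a coding exon (chr11:103809092-103811624) with 2486, 2179 and 2290 bp at P7, 119, 1996 and 2466 bp at P14 and 172, 0 and 0 bp at P60. FGF and BMP genes hosted 27 members in 10 of 44 genes, at 4.77 per Mb over 5.66 Mb. The 2961 kb gene model of Fgfr2 alone held 15 of these 27 members. Among the other genes Gdf6, a ligand of the BMP family in skeletal patterning, had 3144, 1584 and 2505 bp at P7, 720, 1365 and 1267 bp at P14 and 191, 57 and 0 bp at P60. Axon guidance genes hosted 47 members in 17 of 66 genes (4.24 per Mb). In this list Efna2, an ephrin ligand, had 2420, 1571 and 1549 bp at P7, 1091, 1222 and 1971 bp at P14 and 0, 0 and 270 bp at P60, while the Epha3 member, with 83.1% multi-copy words, had 1567, 1342 and 1228 bp at P7 and 1144, 547 and 1561 bp at P60.

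Of 25 glutamate receptor genes, 15 hosted 42 members, at 4.63 per Mb beside the 4.23 per Mb of all genes. Of the 42 members, 29 had a P7 peak, 32 a P14 peak and 15 a P60 peak. Of the 42, 4 were lost, a share close to the 9.19% of all members, beside 14.1% of all regions. Grin2c encodes the NMDA receptor subunit typical of mature granule neurons. Its member over coding and UTR sequence (chr11:115249078-115251430) had 2353, 2114 and 1548 bp at P7, 0, 0 and 1000 bp at P14 and none at P60, and its promoter had a peak in all P7 libraries, in P14 replicates 2 and 3 and in no P60 library. The Grin1 and Grin2c members, the most covered of this list, were both among the 4 lost. Coverage in all 3 P7 libraries and in no P60 library is what defines that class.

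Potassium channel genes hosted members in 21 of 86 genes, at 3.87 per Mb, and calcium, sodium and HCN channel genes in 9 of 44, at 2.21 per Mb. The latter had 13 members, 2 of them multi-copy, and 7 of the 13 were lost. Over all members 9.19% were lost, and over all regions 14.1%. Among single-copy members the share was 17.7%, and among single-copy regions of all classes 22.7%. GABA receptor genes hosted 5 members in 4 of 21 genes (1.73 per Mb). Monoamine and acetylcholine receptor genes hosted 8 in 7 of 49, among them the member over coding and UTR sequence of Adra1d, an adrenergic receptor, with 2374, 1997 and 1913 bp at P7, 1645 and 1276 bp in P14 replicates 2 and 3, fewer in P14 replicate 1, and 218, 0 and 675 bp at P60.

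Of the adhesion and matrix genes, cadherin genes hosted 33 members in 11 of 23 genes (47.8%), at 5.65 per Mb, with a P7 peak in 24, a P14 peak in 24 and a P60 peak in 24. Collagen genes hosted 22 members in 12 of 44 genes, at 4.70 per Mb. The Col6a6 member, 72.3% multi-copy, had 535, 402 and 452 bp at P7 and 351, 360 and 436 bp at P60, and these ranges overlapped. Adamts9, which encodes a matrix protease, had 1759, 1356 and 1324 bp at P7, 637, 953 and 1062 bp at P14 and 0, 70 and 132 bp at P60. Protocadherin genes counted 27 hosts but only 6 members, because 1 region can lie in many overlapping genes of a cluster. Genes of synaptic release hosted 15 members in 13 of 53 genes, at 2.82 per Mb, and Rims4, an active zone protein, had a lost member with 1275, 816 and 486 bp at P7 and none later, as did its promoter. Adamts and laminin genes hosted 11 members in 6 of 34 genes, at 2.30 per Mb.

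Among genes of the H3K27 enzymes and Polycomb subunits, 3 of 26 hosted 4 members. Cbx8, a subunit of Polycomb repressive complex 1, had 2713, 2638 and 2167 bp at P7, 1284, 1734 and 1722 bp at P14 and 0, 0 and 430 bp at P60 in a member over its UTR (chr11:119034465-119037177). Jarid2, a cofactor of Polycomb repressive complex 2, had a different profile. Its intronic member (chr13:44869450-44870145, 696 bp, 67.5 CpG per kb) was in all 9 libraries at 696, 583 and 680 bp at P7, 526, 631 and 693 bp at P14 and 444, 447 and 591 bp at P60, with a median fold enrichment of 11.1. Of its words 58.8% were multi-copy, and the Jarid2 promoter had no peak in any library. As controls, none of 18 ribosomal protein genes with eligible sequence hosted a member and 2 of 522 olfactory receptor genes did.

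The 9 lists of cell type markers are short, and in each of them between 1 and 3 genes hosted between 1 and 4 members. Granule neuron markers held 1 member, in Fat2, a cadherin of granule neurons, with 282 and 547 bp in P7 replicates 1 and 2 and none elsewhere. Granule progenitor markers held 1, in Ccnd2, a cyclin of dividing progenitors. For other cell types, Mag, of myelinating oligodendrocytes, had 1421, 653 and 201 bp at P7, 416 bp in P14 replicate 3 and 388, 0 and 160 bp at P60, and Gfap, of astrocytes, had 647 and 164 bp in P7 replicates 1 and 2 and 298 bp in P14 replicate 3. The promoters of Mag and Gfap had no peak in any library. Rora, of Purkinje cells, had a member with 79.4% multi-copy words in 7 libraries. Slc32a1, the vesicular transporter of inhibitory neurons, had 884, 0 and 720 bp at P7, 238 bp in P14 replicate 3 and none at P60, and Lmx1a, of unipolar brush cells, hosted 2 members. Cx3cr1, of microglia, and Kdr and Flt1, of endothelium, hosted members too, the most covered of them in 2 to 6 libraries.

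Finally, presence in the gene body was set against the host's own promoter in the same library. Among single-copy members present, 60.9% ± 8.12 at P7, 60.4% ± 11.3 at P14 and 30.5% ± 13.5 at P60 had a peak within 3 kb of a TSS of a host. Among single-copy members absent from the library the shares were 58.9% ± 5.91, 51.7% ± 3.78 and 24.2% ± 10.1. The share was higher for members present in 8 of 9 libraries, with P7 replicate 2 the exception (58.3 against 58.4%), and each stage's difference in means was smaller than the SD of the members present. Both shares were above that of all genes with eligible sequence, 20.4% ± 4.34 at P7 and 9.24% ± 2.34 at P60. These are unlike measures, because that share counts each gene once and the members' shares count a host once per member. Host genes were also longer, with a median of 82.1 kb against 25.1 kb, and no link is read from the gap. Multi-copy members had lower shares, 35.2% ± 6.02 at P7 and 22.5% ± 2.55 at P60 when present. In none of the 9 libraries did 1325 members (36.9%) have a host promoter with a peak, Rps6ka4, F12, Mag and Jarid2 among them. A start site of a noncoding transcript lay within 3 kb of 348 members (9.69%), as at Pax2 and Rps6ka4, where the member itself overlapped one.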

How the data were processed

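H3K27me3 ChIP-seq of mouse cerebellum was analysed from 9 deposited peak lists, 3 each at P7, P14 and P60. According to the submitters' notes and the paper, the authors trimmed reads with Trimmomatic 0.38, aligned them to mm10 with STAR 2.7.2b and called broad peaks per library with MACS2 2.1. No input library is named. Per peak, each deposited list gives fold enrichment (a ratio over the library's own background), −log10 of p and of q, and a score, which is −log10 q multiplied by 10. The authors made these values within a library. Peaks reach down to a −log10 q of 1.00, although the methods name a threshold that corresponds to 2, and the lists were used as deposited (with peaks of 2 or more there were 2015 members, not 3592). Read depth was unknown and no counting interval was computed.

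Genes, exons and start sites came from GENCODE vM21 (21938 protein-coding genes, 93459 start sites) and sequence from RefSeq GRCm38.p6. Exons include those of every transcript of a coding gene. Peaks within 3 kb of a start site were promoter peaks, the other peaks overlapping a gene were gene-body peaks and the rest intergenic. Soft-masked bases were read as repeats. Members and lists were chosen with earlier results of these data known. The 6 most covered members of each class, the 10 hosts with most members, the 2 most covered members per list and the regions nearest the 3 kb limit were named by rule; 1 host gene that the rule names is not reported here. The multi-copy, soft-mask and narrow-peak splits were chosen after seeing the data. Library values were compared by exact permutation tests, which were tested on simulated data. Per the methods, each replicate was a separate pool of mice or a separate mouse.

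The 5 lists of the Kdm6b experiment were not used. They are labelled mm10, but 25 to 74 peaks per list ended beyond a GRCm38 chromosome, against 0 in each age-series list, and they overlapped 2.02 to 7.49% of the recurrent promoter regions, against 25.5 to 83.9% in the age series. Python 3.11.15, numpy 2.4.6, scipy 1.17.1 and matplotlib 3.10.9 were used.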

Additional observations from a re-analysis of the deposited data

How the results depend on the processing

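Of 278 values recomputed under alternatives, 223 kept their direction and their side of the threshold or stayed within 1.5 times the count, 16 lost the threshold, 7 passed it, 28 counts moved further and 4 changed sign. The number of members was 3592, and 2015 or 746 with peaks of −log10 q of 2 or 4 or more, 1969 with peaks of 300 bp or more, 2158 with 6905 peaks per library, 2247 when 3 or more libraries were needed, and 1749 without multi-copy members. Lost members numbered 607 with only the gene's 5′ end as TSS, 197 or 44 at −log10 q of 2 or 4, and 160 with equal numbers of peaks. Gained members numbered 19 with a TSS window of 5 kb, 7 or 5 at −log10 q of 2 or 4, 2 with peaks of 300 bp or more, 16 with equal numbers, 18 with peaks under 50% soft-masked, 7 without multi-copy members and 161 without the 3 narrow-peaked libraries. Kept members numbered 116 at −log10 q of 4, 106 with peaks of 300 bp or more, 126 with peaks under 50% soft-masked, 96 without multi-copy members and 472 without the narrow-peaked libraries. The soft-mask, multi-copy and narrow-peak alternatives were chosen after seeing the data. Leaving out each library in turn gave 3159 to 3473 members, 329 to 613 lost, 29 to 192 gained and 304 to 353 kept.

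The difference in gene-body share of peaks between P60 and P7, 1.38 percentage points, became -1.48 with only the gene's 5′ end as TSS (exact p = 0.0179). It passed the threshold with a TSS window of 5 kb (1.55), −log10 q of 2 (4.85), equal numbers of peaks (3.52) without the narrow-peaked libraries (0.759), without P7 replicate 1 and without P60 replicate 2, and ranged from 0.687 to 1.76 when libraries were left out. The difference in share of covered length, 4.62, lost the threshold with the gene's 5′ end (0.912), peaks of 300 bp or more (5.48), peaks under 50% soft-masked (4.72), and without the narrow-peaked libraries (1.55), and ranged from 3.65 to 6.16 when libraries were left out. With the replicate number as a block, the differences stayed 1.38 (exact p = 0.111) and 4.62 (exact p = 0.0556), so the length call was lost. The numbers share no stated litter or day, and deviations of same-numbered libraries correlated at -0.151 to 0.192 over members, against -0.174 to 0.137 for other numbers. The excess in exon share, 7.57 points, was 7.01 at −log10 q of 4 and lost the threshold (exact p = 0.0625), while the CpG excess kept it in all 18 alternatives. Recurrence against intergenic peaks changed sign at −log10 q of 4 (-0.919) and with soft-masked peaks left out (-0.940), and width against intergenic peaks at −log10 q of 2 (2.5). None of these 3 passed the threshold, and recurrence against intergenic peaks passed it without P60 replicate 2 (2.37, unadjusted exact p = 0.0469). Recurrence against promoter peaks, -18.1 points, no longer passed at −log10 q of 2 (-11.5) or 4 (-4.56) or without the narrow-peaked libraries (-22.7), nor did CpG density against intergenic peaks, 2.22 per kb, with peaks under 50% soft-masked (1.33). The cause was not tested. The planned comparisons of the Kdm6b libraries were not run, because their positions run past the ends of GRCm38 chromosomes. Unknown depth limits every statement on absence: a missing peak does not show a missing mark.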
